A study of Homo sapiens with 5 samples.

Results

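The genes described here are 10 genes of ferroptosis and iron handling, which are ACSL4, GPX4, LPCAT3, AIFM2, TFRC, FTH1, FTL, SLC40A1, NCOA4 and STEAP3. They were chosen by symbol among the 37181 genes or assembled loci of the deposited table, and where a symbol had several entries the one with the highest mean FPKM (fragments per kilobase of transcript and unit of library size) over the libraries was used. All 10 were found, and 9 of them reached the mean of 0.5 FPKM that was required for testing. The RNA-seq libraries came from HCC827, a human lung adenocarcinoma cell line with an EGFR exon 19 deletion, and from HCC827/GR, the gefitinib-resistant line derived from it by exposure to rising doses of gefitinib, an EGFR inhibitor. HCC827/GR cells carry the same deletion, and a single resistant line was compared with its parental line. There were 3 libraries of HCC827/GR (replicates 1, 2 and 3) and 2 of HCC827 (replicates 2 and 3). Nothing in the sample descriptions says whether replicates came from separate cultures, so p-values measure the spread between these libraries, which may be technical.

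Ferroptosis is a form of cell death in which iron-dependent peroxidation of membrane lipids goes unrepaired. ACSL4 and LPCAT3 place polyunsaturated fatty acids, the substrate of peroxidation, into phospholipids, GPX4 reduces the lipid peroxides with glutathione, and AIFM2 (also known as FSP1) regenerates ubiquinol, a radical-trapping antioxidant, independently of GPX4. Iron enters cells with transferrin through the transferrin receptor TFRC and is reduced in endosomes by STEAP3. It is stored in ferritin, a shell of heavy (FTH1) and light (FTL) chains, is released from it when NCOA4 carries ferritin to lysosomes, and leaves cells through ferroportin, the product of SLC40A1.

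Several of these mRNAs carry an iron-responsive element (IRE), a hairpin bound by the iron regulatory proteins ACO1 and IREB2 when iron is scarce. Binding in the 5′ UTR of ferritin or ferroportin mRNA holds back translation, and binding in the 3′ UTR protects TFRC mRNA from decay, so that mRNA levels of ferritin do not stand for protein. The elements are shown because the iron genes that carry them did not move alike. UTRs of 19503 GENCODE 29 genes (GRCh38) were searched on the transcribed strand for the loop CAGTGN, with a last base other than G, flanked by 5 base pairs and preceded by an unpaired C. Such a hairpin was found in 0.615% of these genes and in 4 of the 10 genes described here, which are FTH1, FTL, SLC40A1 and TFRC. The sequences are written 5′ to 3′ as DNA with the 6 bases of the loop in capitals.
FTH1, 5′ UTR, chr11:61967574-61967602, minus strand: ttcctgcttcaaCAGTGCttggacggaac
FTL, 5′ UTR, chr19:48965335-48965363, plus strand: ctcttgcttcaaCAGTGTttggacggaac
SLC40A1, 5′ UTR, chr2:189580661-189580689, minus strand: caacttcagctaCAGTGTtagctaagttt
TFRC, 3′ UTR, chr3:196050979-196051007, minus strand: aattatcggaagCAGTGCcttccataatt
TFRC, 3′ UTR, chr3:196050575-196050603, minus strand: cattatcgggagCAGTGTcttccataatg
TFRC, 3′ UTR, chr3:196050510-196050538, minus strand: ctgtatcggagaCAGTGAtctccatatgt
TFRC, 3′ UTR, chr3:196050463-196050491, minus strand: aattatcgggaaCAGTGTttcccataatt
The FTH1 and FTL elements differ at 3 of 29 bases. TFRC carries 4 elements that meet these criteria, all in its 3′ UTR.

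FPKM values carry no read numbers, so the depth behind them is unknown. Protein-coding genes took 66.8% to 78.6% of the FPKM of a library. Of the markers of lung adenocarcinoma and epithelium, KRT8, KRT18, KRT19, EPCAM and CDH1 were present in every library, while SFTPB was below 0.2 FPKM in each. NKX2-1, in an entry that also joins SFTA3, averaged 0.714 FPKM in HCC827/GR and 4.30 in HCC827. EPCAM averaged 8.88 FPKM in HCC827/GR and 79.8 in HCC827, and CDH1 averaged 7.22 and 30.3. The 7 genes of this list with an entry summed to 443.2 to 573.5 FPKM in HCC827/GR and to 1068 to 1186 in HCC827. Of the 6 tested, 5 were lower in HCC827/GR by adjusted p, all but KRT8. The part of this list in the results below was not tested. Defining genes of leukocytes, red cells and hepatocytes were at or near 0, with no gene of these lists above 0.1 FPKM in any library. Markers of macrophages summed to 0.745 to 0.854 FPKM in HCC827/GR and to 1.68 to 2.0 in HCC827, and those of fibroblasts to 2.45 to 2.76 and to 3.18 to 3.24. Most of the fibroblast sum came from the PDGFRA entry (1.88 to 2.53 FPKM over the libraries), which also joins FIP1L1. For endothelium the sums were 0.00297 to 0.0333 and 3.38 to 4.44, nearly all of it from a locus named PECAM1 with no Ensembl transcript, and VWF and CDH5 were below 0.1 FPKM throughout.

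To compare gefitinib-resistant with parental cells, limma's moderated test on log2(FPKM + 1) was run over the 16189 entries that averaged 0.5 FPKM or more, and p-values were adjusted over all of them by the Benjamini-Hochberg method. FTL, STEAP3 and AIFM2 rose in HCC827/GR cells at an adjusted p under 0.05, and 0 genes fell. This is 3 of 9, where 5.26% of all entries tested were higher and 5.71% were lower by the same rule. The genes were chosen with earlier results of these data known, so these shares cannot tell whether they stand out. A further rule required a change of 2-fold or more in either direction on the log2(FPKM + 1) scale and an unadjusted p under 0.05. By this rule 2 of 9 rose (FTL and STEAP3) against 2.96% of all entries, and 0 of 9 fell against 3.97%. HCC827/GR libraries lay above every HCC827 library in 3 genes, the same FTL, STEAP3 and AIFM2, against 22.8% of all entries, and below them in 3 others, ACSL4, TFRC and NCOA4, against 23.4%. For a single gene, groups of 3 and 2 libraries that do not overlap give a two-sided exact permutation p of 0.1, the smallest this design allows. The median log2 fold change of the 9 genes was 0.02, and that of all entries was 0.00.

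**Figure D1:**
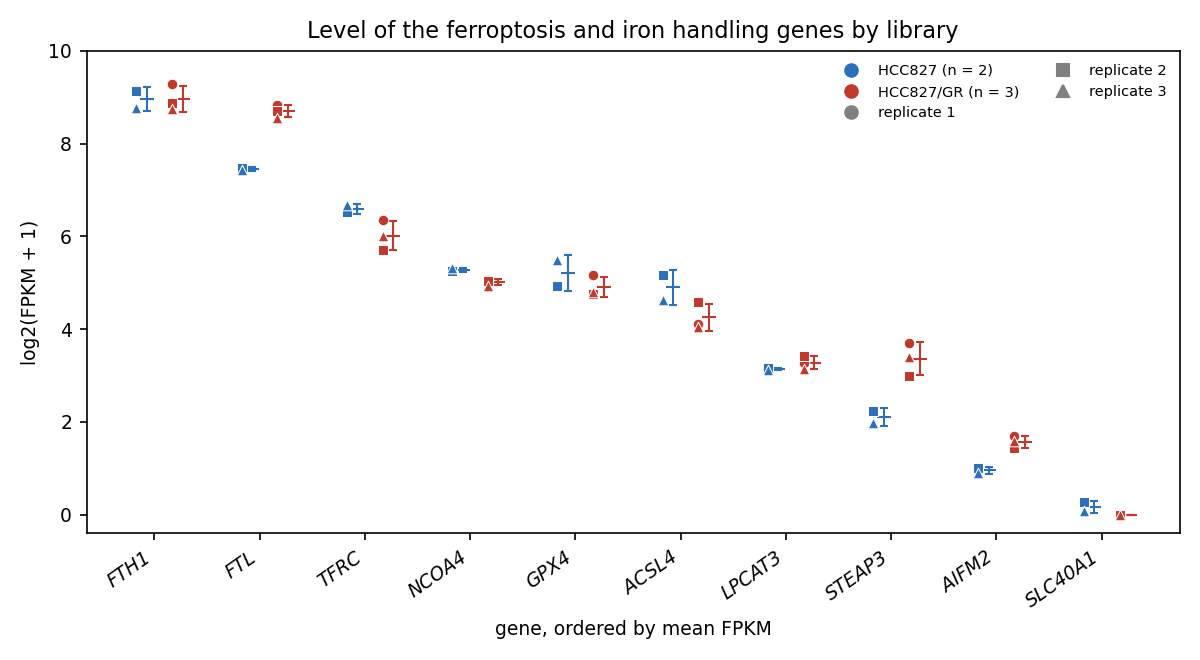
Level of the 10 genes as log2(FPKM + 1) on the vertical axis, with 1 point per library (blue HCC827, red HCC827/GR, marker shape for the replicate number) and the mean with SD beside the points. The red points lie above the blue ones for FTL, STEAP3 and AIFM2 and below them for TFRC, NCOA4 and ACSL4, and all 3 red points of SLC40A1 are at 0.

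Of the ferritin chains, the light chain rose. FTL (chromosome 19, 48965301 to 48966878, plus strand, up to 4 exons in a transcript) stood at 453.1, 418.1 and 376.5 FPKM in HCC827/GR replicates 1, 2 and 3 and at 177.0 and 170.6 FPKM in HCC827 replicates 2 and 3. All 3 resistant libraries were thus far above both parental ones, with means of 415.9 ± 38.3 FPKM (SD, n = 3) and 173.8 ± 4.53 FPKM (SD, n = 2), a 2.39-fold difference. The log2 fold change was 1.25 (standard error 0.12, 95% interval 0.94 to 1.56, adjusted p = 0.00953 from limma). It stayed between 1.13 and 1.32 over all alternatives, but with replicate numbers fitted as a block its adjusted p was 0.130 (limma). Its adjusted p was 0.0647 or 0.0620 without HCC827 replicate 2 or 3, and 0.0629 when entries with low values were also included.

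FTH1, the heavy chain, which holds the ferroxidase centre, did not pass the test. Its entry (chromosome 11, 61959718 to 61967660, minus strand) measured 621.7, 470.9 and 426.1 FPKM in resistant cells and 560.6 and 435.0 FPKM in parental cells. The groups overlapped, and their means of 506.2 ± 102.5 (SD, n = 3) and 497.8 ± 88.8 FPKM (SD, n = 2) differed by less than the spread between replicates. The log2 fold change was 0.02, with a 95% interval of -0.55 to 0.58 (adjusted p = 0.971 from limma). Ferritin genes have many processed pseudogenes that could share reads with them. The 16 FTH1 pseudogenes in the table summed to 2.33 to 4.24 FPKM per library, or 0.494% to 0.974% of the FTH1 value, and the 4 FTL pseudogenes to 0.0442 to 0.442 FPKM, or 0.0250% to 0.244% of the FTL value.

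The balance of the chains within a library does not depend on how libraries are scaled. FTH1 exceeded FTL by 1.37, 1.13 and 1.13 times in HCC827/GR replicates 1, 2 and 3 and by 3.17 and 2.55 times in HCC827 replicates 2 and 3. The parental libraries thus held a larger excess of heavy-chain mRNA per length than any resistant one. On the log2 scale the ratio was 0.27 ± 0.16 (SD, n = 3) in HCC827/GR and 1.51 ± 0.22 (SD, n = 2) in HCC827, a difference of -1.24 (p = 0.1 by a two-sided exact permutation test, the lowest it can give).

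**Figure D2:**
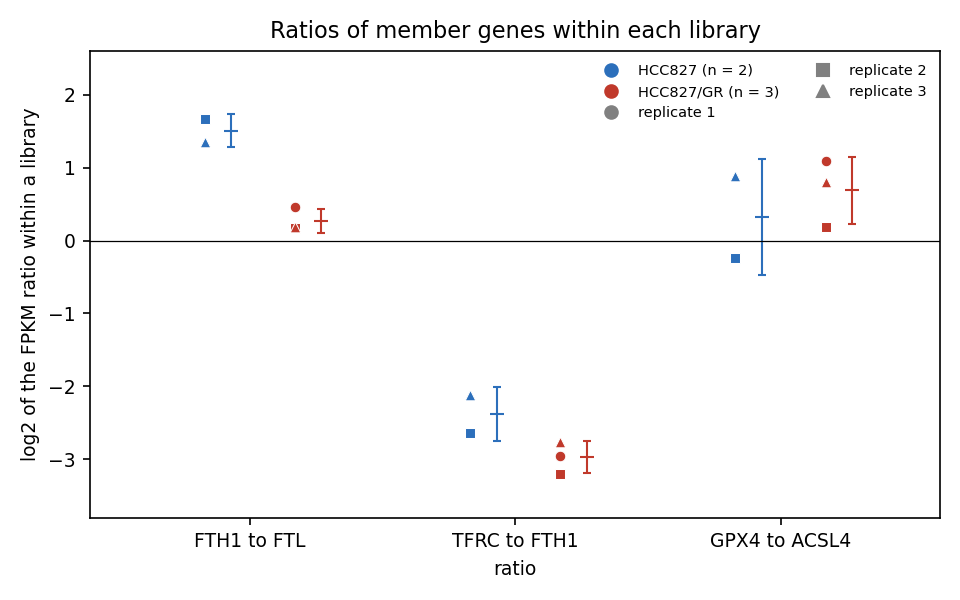
Log2 of the ratio of FPKM values of paired genes within each library (blue HCC827, red HCC827/GR, marker shape for the replicate number), with the mean and SD beside the points. The FTH1 to FTL ratio lies between 1.35 and 1.66 in the blue libraries and between 0.17 and 0.46 in the red ones, the TFRC to FTH1 ratio is lower in every red library, and the GPX4 to ACSL4 ratio overlaps.

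NCOA4, the receptor that delivers ferritin to lysosomes, had 32.3, 31.7 and 29.6 FPKM in HCC827/GR and 36.8 and 38.5 FPKM in HCC827 (chromosome 10, 46005088 to 46030714, minus strand). Each resistant library was below each parental one, by a small amount. The log2 fold change was -0.26 (95% interval -0.50 to -0.03), and the adjusted p of 0.151 from limma missed the threshold.

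Among the genes of iron uptake, STEAP3 rose. This endosomal ferrireductase (chromosome 2, 119223831 to 119265652, plus strand) was at 12, 6.93 and 9.54 FPKM in resistant replicates 1, 2 and 3 and at 3.71 and 2.91 FPKM in parental replicates 2 and 3. The groups did not overlap, although the resistant libraries were spread widely. The means were 9.50 ± 2.55 FPKM (SD, n = 3) and 3.31 ± 0.571 FPKM (SD, n = 2), a 2.87-fold difference, and the log2 fold change was 1.26 (standard error 0.24, 95% interval 0.64 to 1.89, adjusted p = 0.0402 from limma). Leaving out HCC827/GR replicate 1 or 3 raised the adjusted p to 0.0872 or 0.112, and leaving out HCC827 replicate 2 or 3 raised it to 0.140 or 0.175. With no filter the adjusted p was 0.0789, and with replicate numbers fitted as a block it was 0.175 (limma for both). The log2 fold change remained between 1.09 and 1.52 over all alternatives. A further STEAP3 locus with no Ensembl transcript had 0.211 to 2.0 FPKM, and summing both entries left the adjusted p under 0.05.

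TFRC was among the 200 entries with the highest mean FPKM. It had 80.2, 51.2 and 63.0 FPKM in HCC827/GR and 90.3 and 100.7 FPKM in HCC827 (chromosome 3, 196027183 to 196082189, minus strand). All resistant libraries were below the parental ones, with means of 64.8 ± 14.6 (SD, n = 3) and 95.5 ± 7.37 FPKM (SD, n = 2). The log2 fold change of -0.57 (95% interval -1.12 to -0.03) had an adjusted p of 0.169 from limma. Within a library, TFRC was 0.129, 0.109 and 0.148 times the FTH1 level in HCC827/GR and 0.161 and 0.232 times in HCC827. The log2 ratio differed by -0.60 between the groups, with no overlap (exact permutation test, two-sided, p = 0.1). Of the mRNAs with an IRE, FTL was thus called higher, while neither FTH1 nor TFRC was called.

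SLC40A1, the fourth gene with an IRE and the only known iron exporter, was close to absent in both lines. All 3 resistant libraries listed it at 0, and the parental ones at 0.198 and 0.0532 FPKM. The gene (chromosome 2, 189560579 to 189583758, minus strand) was below the level required for testing, no fold change is given, and a value of 0 in such a table can also be a failed estimate. HAMP, which encodes hepcidin, the hormone that removes ferroportin from the membrane, was below 0.1 FPKM in every library.

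On the lipid side, ACSL4 had 16.4, 22.9 and 15.6 FPKM in HCC827/GR and 34.8 and 23.8 FPKM in HCC827. The highest resistant library (22.9 FPKM) lay just under the lowest parental one (23.8 FPKM). Its log2 fold change was -0.65 (95% interval -1.28 to -0.01, adjusted p = 0.178 from limma). The ACSL4 entry (chromosome X, 109624244 to 109733403, minus strand) also joins transcripts of KCNE5. Of the 10 nearest tested protein-coding genes on chromosome X, 5 on each side of ACSL4, 6 were called lower in HCC827/GR and 0 higher, with a median log2 fold change of -0.996 and a range of -2.24 to 1.05. Around FTL, in contrast, 0 of 10 neighbours were called, with a median of 0.07 and a range of -0.46 to 0.49, and around STEAP3 and AIFM2 1 of 10 each was called higher, with medians of 0.18 and 0.17.

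LPCAT3, the acyltransferase that acts after ACSL4, had 8.60, 9.66 and 7.86 FPKM in HCC827/GR and 7.89 and 7.71 FPKM in HCC827 (chromosome 12, 6976186 to 7018510, minus strand). The groups overlapped, and the log2 fold change was 0.14 (95% interval -0.16 to 0.43, adjusted p = 0.498 from limma). The table holds 4 further loci named LPCAT3 without an Ensembl transcript, each at 2.11 FPKM or less. With these added, the direction turned, to a log2 fold change of -0.37 (adjusted p = 0.241).

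Of the defence genes, AIFM2 rose and GPX4 did not pass the test. AIFM2 (chromosome 10, 70098223 to 70132934, minus strand) had 2.23, 1.69 and 2.01 FPKM in HCC827/GR and 1.01 and 0.869 FPKM in HCC827. Every resistant library was above both parental ones, with means of 1.98 ± 0.271 (SD, n = 3) and 0.938 ± 0.0979 FPKM (SD, n = 2), a 2.11-fold difference. Values this low are compressed by the added 1, and the log2 fold change was 0.62 (standard error 0.13, 95% interval 0.29 to 0.94, adjusted p = 0.0473 from limma). This call was lost whichever library was left out, with an adjusted p of 0.0781 to 0.130 over the left-out HCC827/GR libraries. It was also lost with a mean of at least 1 FPKM required (0.0505) and with entries of a symbol summed (0.0535). The same held with no filter (0.104) and with replicate numbers fitted as a block (0.207).

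GPX4, the glutathione-dependent lipid peroxidase, had 34.7, 26.1 and 27.0 FPKM in HCC827/GR and 29.5 and 43.9 FPKM in HCC827 (chromosome 19, 1103926 to 1106791, plus strand). The parental libraries differed from each other more than the group means did. Its log2 fold change was -0.30, and its 95% interval of -0.89 to 0.28 spanned 0 (adjusted p = 0.453 from limma). The GPX4 to ACSL4 ratio was 2.12, 1.14 and 1.73 in HCC827/GR and 0.848 and 1.85 in HCC827, and the groups overlapped (exact permutation test on the log2 ratio, two-sided, p = 0.6).

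**Figure D3:**
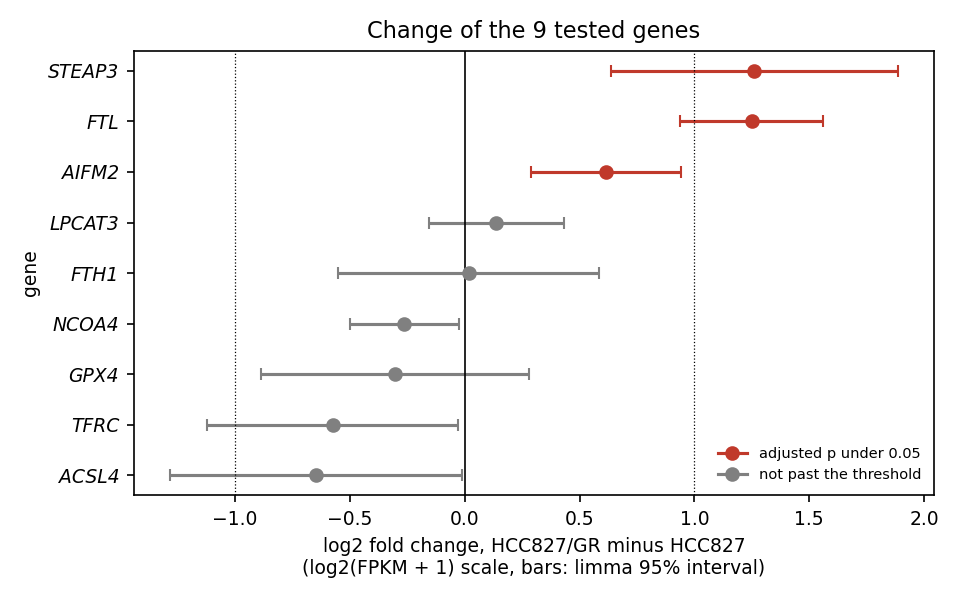
Log2 fold change of the 9 tested genes, HCC827/GR minus HCC827, with the 95% interval from limma. Red marks an adjusted p under 0.05, and dotted lines mark a 2-fold change in either direction. The intervals of the called genes STEAP3, FTL and AIFM2 lie above 0, and those of ACSL4, TFRC and NCOA4 end just below 0.

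Per length of transcript, the genes kept nearly the same order of levels in both lines. FTH1 was highest and FTL next, followed by TFRC, NCOA4, GPX4 and ACSL4, and AIFM2 and SLC40A1 were lowest. FTH1 ranked 20 and FTL 39 among the 16189 entries by mean FPKM, AIFM2 ranked 10544. In HCC827 the FTH1 and FTL values were separate, whereas in HCC827/GR their ranges overlapped. STEAP3 was below LPCAT3 in both HCC827 libraries, and in HCC827/GR their ranges overlapped. NCOA4 and GPX4 did not differ beyond their spread in either line, nor did GPX4 and ACSL4 in HCC827.

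The wider pathway was read from 8 lists of 89 genes, of which 85 had an entry and 71 were tested. Of the 71, 5 were called higher and 7 lower by adjusted p, again against 5.26% and 5.71% of all entries. Both directions together were 16.9% of the 71 against 11.0% of all entries, and no list was tested as a set. The lists, too, were chosen with earlier results of these data known. The median log2 fold change was 0.09. The sets of genes for iron storage and chaperones, iron export, and iron-responsive and NRF2 regulators held 0 called genes of 3, 2 and 9 tested. With any 1 library left out, 0 to 4 pathway genes were called instead of 12.

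**Figure D4:**
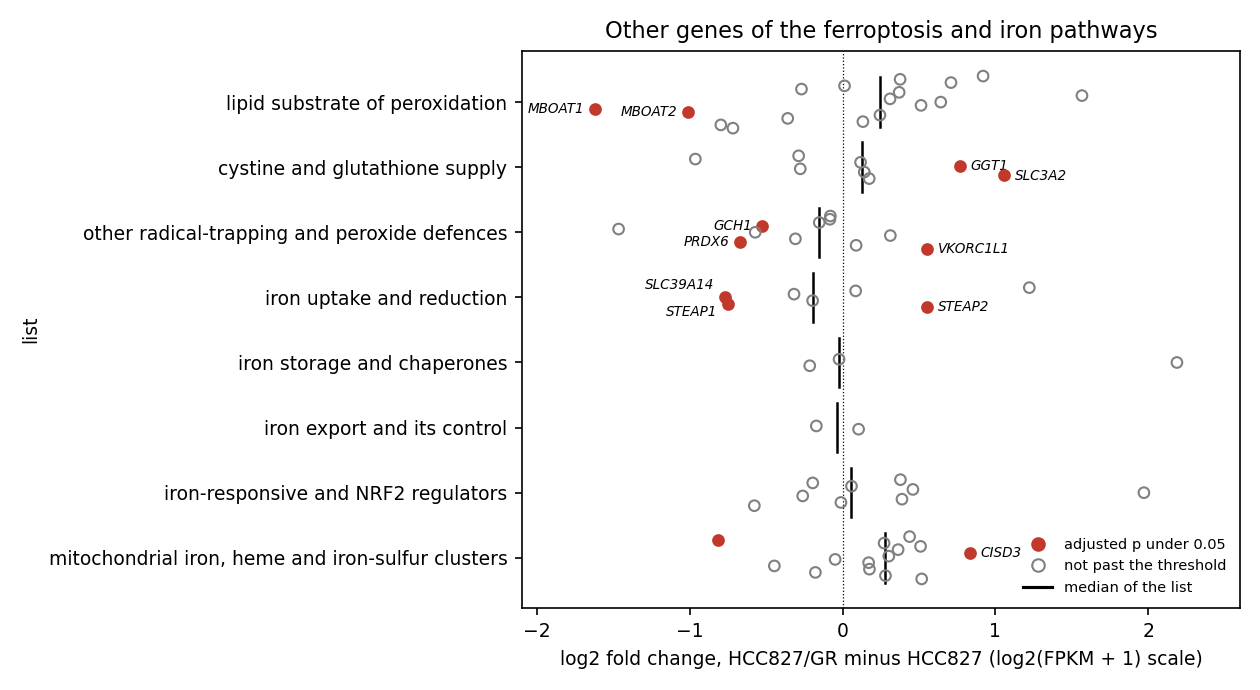
Log2 fold change of the 71 tested genes of the 8 pathway lists, HCC827/GR minus HCC827, with 1 circle per gene and a black bar at the median of each list. The 12 filled circles, 11 of them named, have an adjusted p under 0.05, of which 5 lie to the right of 0 and 7 to the left.

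Cystine and glutathione supply had 2 called genes of 8 (25.0%, against 11.0% of all entries), both higher. SLC3A2, the heavy chain of the cystine transporter and of other amino acid transporters, had 107.8, 112.7 and 118.1 FPKM in HCC827/GR and 49.0 and 58.7 FPKM in HCC827, a log2 fold change of 1.06 (adjusted p = 0.0122 from limma). GGT1, which breaks down extracellular glutathione, had a log2 fold change of 0.77 (adjusted p = 0.0185), in an entry that also joins SNRPD3. SLC7A11, the light chain that takes up cystine, did not follow SLC3A2 past the threshold. It had 4.01, 3.39 and 5.54 FPKM against 2.63 and 4.95 FPKM, a log2 fold change of 0.17 (95% interval -0.56 to 0.91, adjusted p = 0.752).

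The list for the lipid substrate had 2 called genes of 17, both lower. This is 11.8%, close to the 11.0% of all entries. The called genes are MBOAT1 and MBOAT2, acyltransferases that place monounsaturated fatty acids into phospholipids. MBOAT2 had 2.95, 3.84 and 3.40 FPKM in HCC827/GR and 8.93 and 6.88 FPKM in HCC827, a log2 fold change of -1.01 (adjusted p = 0.0245 from limma). For MBOAT1 the log2 fold change was -1.62 (adjusted p = 0.0146), in a locus with no Ensembl transcript. With its 2 entries summed it was -1.43 (adjusted p = 0.107).

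Other radical-trapping and peroxide defences had 1 gene called higher and 2 lower of 11 (27.3%, against 11.0% of all entries). VKORC1L1, a vitamin K reductase, rose by 0.55 on the log2 scale (adjusted p = 0.0412), while PRDX6, a peroxiredoxin, had a log2 fold change of -0.67 (adjusted p = 0.0411) and GCH1, which starts tetrahydrobiopterin synthesis, of -0.53 (adjusted p = 0.0486, from limma for all 3). VKORC1L1 has 4 entries, and with these summed its log2 fold change was 0.42 (adjusted p = 0.207), while no filter and limma without the trend gave adjusted p-values of 0.0606 and 0.0513. GCH1 kept its call in 2 of 14 alternatives, and its adjusted p was 0.0512 with a pseudocount of 0.1, 0.0510 with median-ratio scaling, 0.0626 with quantile normalization and 0.0548 without the trend. PRDX6 lost its call with no filter (adjusted p = 0.0726 from limma) and without HCC827/GR replicate 1, 2 or 3 (0.129, 0.111 or 0.0541). Of the other glutathione peroxidases, GPX8 had a log2 fold change of 0.31 (adjusted p = 0.146) and GPX2 of -0.57 (adjusted p = 0.169), and GPX3 was below the level required for testing. GPX1 ran from 0.534 to 36.0 FPKM in HCC827/GR and from 5.12 to 75.3 FPKM in HCC827, a spread within each group larger than the difference between their means.

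Iron uptake and reduction had 1 gene called higher and 2 lower of 7 (42.9%, against 11.0% of all entries). STEAP2, a relative of STEAP3, had 1.47, 1.46 and 1.48 FPKM in HCC827/GR and 0.680 and 0.688 FPKM in HCC827, a 2.15-fold difference of the means. As for AIFM2, the added 1 compressed this change, to 0.55 on the log2 scale (adjusted p = 0.0375), and a pseudocount of 0.1 gave 1.0 in its place. Its relative STEAP1, also on chromosome 7, had a log2 fold change of -0.75 (adjusted p = 0.0429 from limma). SLC39A14, an importer of iron not bound to transferrin, had 12.5, 10.4 and 11.9 FPKM in HCC827/GR and 18.8 and 22.3 FPKM in HCC827, a log2 fold change of -0.77 (adjusted p = 0.0302). STEAP2, STEAP1 and SLC39A14 all lost their calls with no filter (adjusted p = 0.0980, 0.0822 and 0.0517 from limma). They also lost them whichever HCC827/GR library was left out (0.0783 to 0.114). SLC11A2, which carries iron out of endosomes after its reduction, had 2.96, 3.04 and 2.77 FPKM against 3.88 and 3.90 FPKM and an adjusted p of 0.0943.

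The mitochondrial list had 1 gene called higher and 1 lower of 14 (14.3%, against 11.0% of all entries). The higher one was CISD3, an iron-sulfur protein of the matrix, which had 14.4, 13.4 and 11.2 FPKM in HCC827/GR and 6.57 and 7.06 FPKM in HCC827. The groups did not overlap, and its log2 fold change was 0.83 (adjusted p = 0.0272 from limma).

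Among the regulators, the iron regulatory proteins that bind the IREs shown above did not pass the test. ACO1 had a log2 fold change of 0.38 (95% interval -0.06 to 0.82, adjusted p = 0.239 from limma) and IREB2 of 0.39 (95% interval -0.18 to 0.95, adjusted p = 0.328). FBXL5, the ubiquitin ligase subunit that removes IREB2 protein when iron is plentiful, had 0.06 (adjusted p = 0.833), and KEAP1, the inhibitor of NRF2, had -0.01 (adjusted p = 0.955). HMOX1, which frees iron from heme and is a target of NRF2, had 43.2, 33.6 and 10.8 FPKM in HCC827/GR and 4.78 and 6.74 FPKM in HCC827. Every resistant library was higher, but they differed so much among themselves that the log2 fold change of 1.97 had a 95% interval of 0.37 to 3.58 and an adjusted p of 0.124. Without HCC827/GR replicate 3 it was 2.55 (adjusted p = 0.0306), in a range of adjusted p from 0.0306 to 0.368 over the alternatives. NFE2L2, which encodes NRF2, had no entry under that symbol and could not be analysed here.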

How the data were processed

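RNA-seq libraries of HCC827/GR cells (3) and HCC827 cells (2) were compared by their FPKM values as deposited by the authors, with 1 value per gene or assembled locus and library. According to the methods, the authors trimmed reads with Cutadapt, mapped them with Bowtie2 and TopHat2, and assembled and quantified transcripts with StringTie and Ballgown. The submitters' processing notes name hg18, whereas nearly all Ensembl transcripts of the table (135164 of 135299) were found in GENCODE 29 on GRCh38, from which all positions and sequences here were taken. The sample descriptions name a small-RNA kit and the methods an mRNA kit, which can change what is counted. A column of FPKM values that matched no sample (1) was not used.

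FPKM was compared with limma 3.58.1 in R 4.3.3 (two-sided moderated test by lmFit and eBayes, mean-variance trend on) after taking log2(FPKM + 1) of the 16189 entries averaging 0.5 FPKM or more, in place of Ballgown's test. Ratios within a library used exact permutation tests. Python 3.11.15 with pandas 2.3.3 and matplotlib 3.10.9 was used for counts and plots. The 10 genes and the lists were chosen with earlier results of these data known. Named were all 10 genes, the pathway genes with an adjusted p under 0.05 (at most 15, of which 1 is not reported here) and the direct partners GPX1, GPX2, GPX3, GPX8, SLC7A11, IREB2, ACO1, FBXL5, NFE2L2, KEAP1, HMOX1 and SLC11A2. Alternatives were a pseudocount of 0.1, other filters, other scalings, no trend, a replicate block, summed entries, the ratio of mean FPKM and each library left out.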

Additional observations from a re-analysis of the deposited data

How the results depend on the processing

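No alternative turned the direction of a called gene, and the count by fold change and p stayed at 2 of the 9 genes except with the ratio of mean FPKM (3). The count by adjusted p was less stable. It was 0 of 10 with no filter on low values, where 5 had an unadjusted p under 0.05, and leaving out 1 library gave 0 to 2 genes. Without HCC827 replicate 2 or 3 it was 0 in limma, with 3 and 4 at an unadjusted p under 0.05, and without HCC827/GR replicate 1 or 3 it was 1. When an HCC827 library is left out, the lone one is assumed to vary like the HCC827/GR libraries. Over the left-out HCC827/GR libraries, pathway genes called ran from 0 (without replicate 1, with 25 at an unadjusted p under 0.05) to 4. With all libraries and no block they ran from 8 (no filter) to 13 (a mean of at least 1 FPKM required). Replicate numbers 2 and 3 are shared by the groups. Taken over all entries tested, same-numbered libraries did not deviate together (correlation 0.03). Whether they share a culture or a batch was not tested. With the replicate block, 0 of the 9 genes, 0 pathway genes and 0 of all 16189 entries had an adjusted p under 0.05, with 5 and 24 at an unadjusted p under 0.05 in the first 2 counts.

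Uncalled values that changed sign were LPCAT3 with summed entries (-0.37), FTH1 with quantile normalization (-0.15), with the block (-0.14) and over left-out libraries (-0.17 to 0.20), FBXL5 with summed entries (-0.13) and over left-out libraries (-0.12 to 0.23), and, over left-out libraries, GPX1 (-3.29 to 0.35), SLC7A11 (-0.18 to 0.53), KEAP1 (-0.10 to 0.078) and the difference in the log2 GPX4 to ACSL4 ratio (-0.20 to 0.93, below 0 without HCC827 replicate 2). The cause was not tested. No alternative scaling moved the median of all entries by over 0.03 (log2). The within-library ratios otherwise kept their direction, and all moved by less than the spread between replicates.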

Other observations

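The further list genes given here were chosen after seeing their values. ALOX5, a lipoxygenase that oxidizes polyunsaturated fatty acids, stayed below the level required for testing, with 0.0414, 0.0875 and 0.0350 FPKM in HCC827/GR and 0.659 and 0.690 FPKM in HCC827. ELOVL5, which elongates polyunsaturated fatty acids, had 51.9, 20.0 and 62.7 FPKM in HCC827/GR and 13.2 and 12.7 FPKM in HCC827, with an adjusted p of 0.136 from limma. ACSL1, a relative of ACSL4, had 4.54, 3.30 and 5.15 FPKM against 2.25 and 1.39 FPKM (adjusted p = 0.0688). CTH, which makes cysteine from cystathionine, had 13.9, 8.93 and 9.90 FPKM against 28.4 and 16.8 FPKM (adjusted p = 0.116).

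Individual libraries set some values apart. CYBRD1, a plasma-membrane ferrireductase, measured 3.77 and 3.54 FPKM in resistant replicates 1 and 3 but 0.350 FPKM in replicate 2, next to 0.327 and 0.315 FPKM in the HCC827 libraries. PCBP1, an iron chaperone whose gene has 1 exon, was listed at 93.7 FPKM in HCC827/GR replicate 3 and at 0 in the other libraries. As for SLC40A1, a value of 0 can also be a failed estimate.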
